A study of Homo sapiens with 6 samples.

Results

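MYB, its relatives MYBL1 and MYBL2, and HBS1L, the gene upstream of MYB, were followed in ChIP-seq peak lists labelled as OCI-AML3 cells. The 4 genes were chosen by name, as the MYB family and the neighbour of MYB, with earlier results of these data known. The study itself reports less of the same histone marks at MYB after knockout of mutant NPM1. For each gene, the peaks in its annotated record with 20 kb on either side were taken, and for MYB also those in the interval between HBS1L and MYB. These 5 regions held 214 of the 1105043 peaks of the 4 lists.

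OCI-AML3 is an established human acute myeloid leukemia (AML) line with mutant NPM1 (mtNPM1), and per the study it also carries mutations of DNMT3A and NRAS, so that every group shared them. A non-targeting control guide (sgNeg) or one directed at mtNPM1 (sgNpm1A) was transfected, and the labels give 3 days of culture afterwards, whereas the study's text gives a longer time. Acetylation of lysine 27 of histone H3 (H3K27Ac), a mark of active enhancers and promoters, and trimethylation of lysine 4 (H3K4me3), a mark of active promoters, were each mapped in 1 library per guide, and 2 input samples were not analysed here. With 1 library per group there was no replicate, no test between guides and no p-value for any difference, and every comparison sets a pair of libraries side by side.

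MYB is a DNA-binding transcription factor that blood progenitors need for their growth and that falls as they mature, and many myeloid leukemias depend on it. MYBL1 and MYBL2 share its DNA-binding domain. MYBL2 is expressed in dividing cells and acts with the MuvB complex at genes of the G2 and M phases, while MYBL1 is best known from the male germ line. HBS1L is a GTPase that rescues stalled ribosomes, and the interval between it and MYB holds enhancers that are bound by GATA1 and its partners in red blood cell precursors and that loop to MYB.

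The lists differed before any single gene was considered. In sgNeg, 327715 H3K27Ac and 353628 H3K4me3 peaks were listed, against 317059 and 106641 in sgNpm1A. The total number of fragments was not in the lists. A promoter was taken as 1 kb on either side of a gene start. For H3K27Ac this was any annotated transcript start, and for H3K4me3 the start of the gene record alone. Shares are therefore not comparable between the marks. For H3K27Ac, 79.1% of 20163 protein-coding genes had a promoter peak in sgNeg against 57.0% in sgNpm1A. For H3K4me3, 64.7% of 19666 genes had one in sgNeg and 7.66% in sgNpm1A. The sgNpm1A H3K4me3 list therefore stood apart from its sgNeg counterpart in holding few promoters of any kind. Promoters also stood low in the sgNpm1A H3K27Ac list. Over all genes, the median within-list percentile by fold of the highest H3K27Ac promoter peak, with 0 for no peak, was 92.38 in sgNeg and 23.03 in sgNpm1A. The part of either list difference in the results below was not tested. Of 10 genes of myeloid and general blood cells, all 10 had a H3K27Ac promoter peak in sgNeg and 8 in sgNpm1A, while H3K4me3 promoter peaks were at 7 and 0 of them. In sgNeg, H3K27Ac promoter peaks were also at 3 of 5 erythroid and 5 of 6 B and T lymphoid genes. They were at 6 of 8 epithelial and liver genes and 3 of 4 neural genes, so that such a peak alone hardly set blood genes apart. The median H3K27Ac percentile in sgNeg was 99.0 for the blood genes and 29.8 to 56.8 for these other sets. H3K4me3 promoter peaks in sgNeg were at 1, 1, 2 and 1 genes of the other sets. The labels give OCI-AML3 for every sample, but the deposited lists are tagged by name as OCI2 for H3K27Ac and as OCI3 for H3K4me3. The meaning of these tags was not given, and whether both marks were mapped in the same cells was not tested. H3K27Ac coordinates are on GRCh37 and H3K4me3 coordinates on GRCh38, and positions were compared across marks only as distances from a gene's start.

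The upstream sequences of MYB, MYBL2 and HBS1L are shown because the strongest H3K4me3 peaks of these genes lay beside them. Of the 4 genes, 3 matched the RefSeq promoter table, all but MYBL1. Each is the 250 bases before the start of the RefSeq gene record on GRCh38, written 5′ to 3′ along the gene, for MYB chr6:135181058-135181307 on the plus strand, for MYBL2 chr20:43666864-43667113 on the plus strand and for HBS1L chr6:135054823-135055072 on the minus strand. Capitals mark the letters GGCGGGA on either strand, a motif like those of E2F factors, which was picked after these sequences were seen.
MYB: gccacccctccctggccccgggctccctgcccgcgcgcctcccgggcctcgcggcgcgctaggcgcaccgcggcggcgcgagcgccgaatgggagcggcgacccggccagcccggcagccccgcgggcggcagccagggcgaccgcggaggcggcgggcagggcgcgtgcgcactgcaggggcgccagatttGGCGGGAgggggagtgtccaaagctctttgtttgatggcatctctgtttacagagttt
MYBL2: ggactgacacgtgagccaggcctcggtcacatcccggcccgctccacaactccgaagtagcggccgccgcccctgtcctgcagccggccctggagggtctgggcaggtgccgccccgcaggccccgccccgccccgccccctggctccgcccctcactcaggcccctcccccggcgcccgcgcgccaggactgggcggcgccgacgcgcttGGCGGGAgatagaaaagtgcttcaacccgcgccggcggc
HBS1L: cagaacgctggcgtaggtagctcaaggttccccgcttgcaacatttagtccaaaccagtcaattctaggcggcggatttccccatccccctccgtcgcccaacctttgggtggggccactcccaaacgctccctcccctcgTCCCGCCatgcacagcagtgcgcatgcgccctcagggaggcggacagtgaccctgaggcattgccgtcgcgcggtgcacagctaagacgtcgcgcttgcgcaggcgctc
The motif occurred once in each of the 3 windows, and began 58 bases before the start in MYB, 39 in MYBL2 and 109 in HBS1L, where it reads TCCCGCC. Over all 35116 promoters of the same table and length, 13.5% held it. The MYB window had 75.6% G and C and 34 CpG dinucleotides, the MYBL2 window 76.8% and 30, and the HBS1L window 64.0% and 22, against medians of 58.0% and 11.0 over all promoters. CCAAT was in none of the 3 windows, and 32.0% of all promoters held it. AACNG, the core letters of the MYB binding motif, occurred once in the MYB window and in neither of the others, and 70.6% of all promoters held it. In sgNeg, 120 of the 250 bases of the MYB window lay under a H3K4me3 peak. No base of the other windows did, as the peaks of MYBL2 and HBS1L began downstream of the start, and no base of any window was under a sgNpm1A H3K4me3 peak.

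MYB was covered almost throughout by H3K27Ac in sgNeg, and no H3K27Ac peak touched the gene in sgNpm1A. In sgNeg, 80.6% of the bases of the gene record (chr6:135502446-135540311, GRCh37) lay under peaks, and in sgNpm1A 0%. With 20 kb on either side, coverage was 54.9% in sgNeg and 2.67% in sgNpm1A, giving a ratio of 0.0486. Chromosome 6 as a whole went from 5.45% to 3.94%. Among all protein-coding genes with the same flanks, MYB stood at percentile 96.1 of coverage in sgNeg and at 27.1 in sgNpm1A. The ratio was below 0.5 in 29.9% of all genes. How many genes had a ratio as low as that of MYB was not counted for either mark.

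The MYB promoter carried a single H3K27Ac peak of 21514 bp in sgNeg (chr6:135499239-135520752). It ran from −3207 to 18306 bp from the start, so that it took in the promoter and the upstream part of the gene as 1 region. Its fold enrichment, the ratio of the pileup to the background averaged over the peak, was 7.20, with a deposited q-value of 1.19e-15. Rank 1 being the highest fold of a list, this peak had rank 1088 of 327715, and it had rank 86 by width. Among the 15950 genes with a H3K27Ac promoter peak in sgNeg, MYB had rank 1034. No H3K27Ac promoter peak of MYB was listed in sgNpm1A, where the lowest fold listed anywhere was 2.66.

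**Figure D1:**
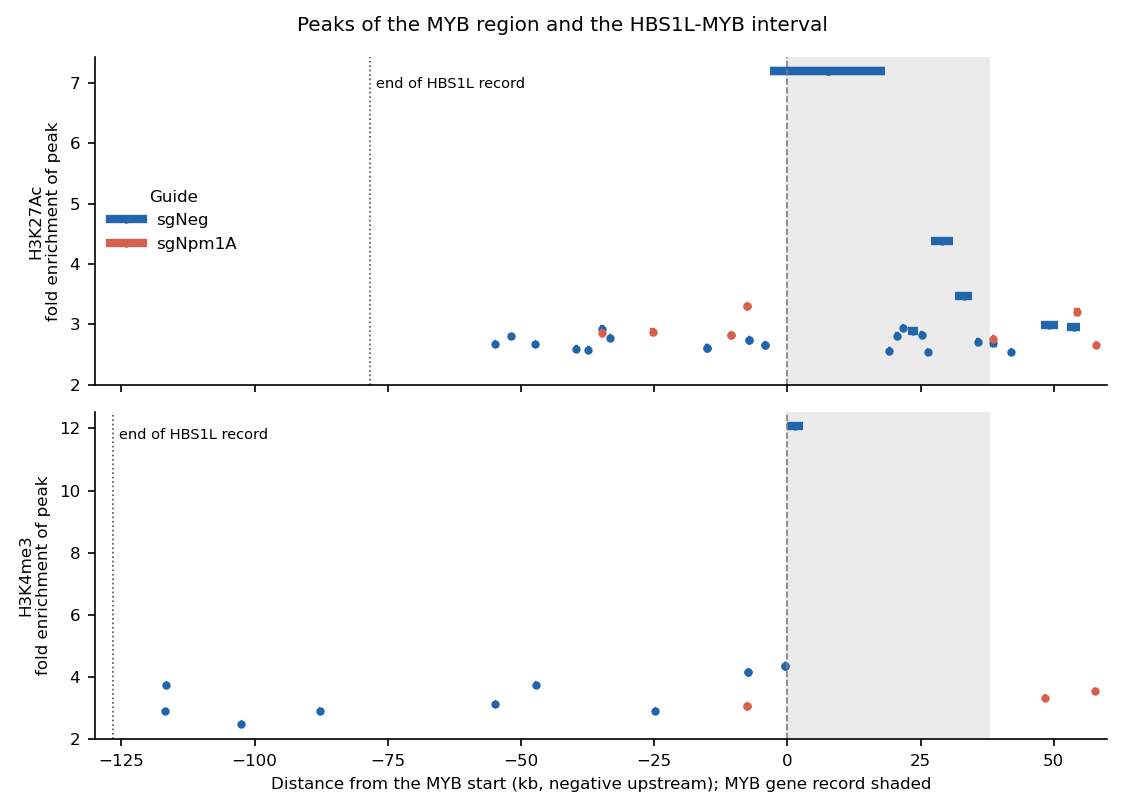
Peaks of the MYB region and of the interval upstream, by distance from the MYB start in kb (x) and fold enrichment (y), for H3K27Ac (top) and H3K4me3 (bottom). Each bar with a point is 1 peak drawn to its width, in blue for sgNeg and red for sgNpm1A, and the dotted line is the end of the HBS1L record. The sgNeg peaks of 7.20-fold (H3K27Ac) and 12.1-fold (H3K4me3) at the MYB start have no sgNpm1A peak below them.

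Inside MYB, the next highest H3K27Ac peaks of sgNeg lay in introns near the 3′ end. A peak of 4021 bp (chr6:135529478-135533498) from 27032 to 31052 bp downstream of the start had a fold enrichment of 4.39 and rank 9006. A peak of 3075 bp from 31543 to 34617 bp had 3.47 and rank 24213. In all, 5 intronic peaks, 1 exonic peak and 3 peaks at internal transcript starts were listed beside the promoter peak, and the internal starts had folds of 2.81 to 2.94, near the bottom limit of 2.54 of that list. Of the 17 sgNeg peaks in the region 3 had a q-value under 0.01, and of the 5 sgNpm1A peaks 2 did. The sgNpm1A peaks all lay outside the gene, and the 3 highest had folds of 3.30, 3.21 and 2.83 at ranks 52588, 71218 and 212299 of 317059. Of the 17 sgNeg peaks 2 overlapped a sgNpm1A peak, against 50.7% over the whole sgNeg list, where sgNpm1A had only 5 peaks to overlap. Of these 5 sgNpm1A peaks 2 overlapped a sgNeg peak, near the 51.4% of the whole sgNpm1A list for so few peaks.

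The 300 bases at the midpoint of the 4021-bp intronic peak are shown (chr6:135531338-135531637, GRCh37, plus strand). By fold this was the highest H3K27Ac peak of MYB outside its promoter peak. The H3K27Ac lists give no summit, so that the strongest position within the peak was not known. Capitals mark any of GATAA (core letters of GATA motifs), GGAAGT (of ETS motifs) and TGTGGT (of RUNX motifs) on either strand.
MYB intron: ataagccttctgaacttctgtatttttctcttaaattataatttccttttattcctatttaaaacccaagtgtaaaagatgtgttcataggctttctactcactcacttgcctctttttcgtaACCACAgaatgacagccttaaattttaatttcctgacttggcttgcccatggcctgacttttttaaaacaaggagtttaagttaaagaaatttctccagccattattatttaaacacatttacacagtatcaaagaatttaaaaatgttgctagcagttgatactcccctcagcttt
The RUNX letters were found once in it, as ACCACA, and the other motifs were not found. The central 300 bases of 7846 sgNeg H3K27Ac peaks of chromosome 6 held the GATA letters in 31.6%, the ETS letters in 18.8% and the RUNX letters in 20.5%. The window had 32.7% G and C.

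H3K4me3 at MYB lay at the start in sgNeg, apart from 1 small peak upstream, and no peak was listed at the start in sgNpm1A. The sgNeg promoter peak (chr6:135181341-135184238, GRCh38) was 2898 bp wide and reached from 33 to 2930 bp downstream of the start, with a fold enrichment at its summit of 12.1. It had rank 638 of 353628 by fold and 152 by width. The folds of the H3K4me3 lists give whole fragment pileups over 1 background for each list, with 1 added to both terms. Read this way, the MYB summit, 448 bp downstream of the start, held 57 fragments (95% exact Poisson interval 43.2 to 73.9, for counting error only) over a background of 3.81. Another sgNeg peak of 549 bp lay from −679 to −131 bp with 4.37-fold. In sgNpm1A the background was 2.93 and the lowest pileup listed 10 fragments, a fold of 2.80 with the same 1 added, so that a stretch of at least 245 bp, the narrowest peak of that list, over this level would have been listed at MYB. The 3 sgNpm1A peaks of the region lay in the flanks, with folds of 3.05 to 3.56 and a best rank of 50046 of 106641. Coverage of the region was 4.67% in sgNeg and 1.22% in sgNpm1A, giving a ratio of 0.262, while chromosome 6 went from 1.53% to 0.704% and 61.2% of all genes had a ratio below 0.5. By percentile of H3K4me3 coverage among genes, MYB stood at 56.7 in sgNeg and 53.5 in sgNpm1A.

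Joined into longer stretches, H3K27Ac at MYB stood among the leading regions of sgNeg. With peaks up to 12.5 kb apart stitched, and the stretches ranked by summed length times fold, the region over MYB had rank 299 of 49245, spanned 166084 bp and joined 47 peaks, with 50.8% of its length under peaks. This region ran to position 135652985, well beyond the end of the MYB record at 135540311, so that most of it lay outside the gene. With a gap of 5 kb, chosen after seeing the data, it shrank to 49504 bp with 73.1% under peaks and had rank 370 of 107881. No stitched region of sgNpm1A touched the MYB gene at either gap. The region that reached the 3′ part of MYBL1, but not its promoter, had rank 334 with the 5-kb gap in sgNeg, above MYB. At 12.5 kb it had rank 607 in sgNeg and 547 of 52913 in sgNpm1A, and at 5 kb the best MYBL1 rank in sgNpm1A was 13176 of 120270. MYBL2 had ranks 1060 and 1958 at 12.5 kb, and HBS1L 6373 and 23023. These ranks were not set against the coverage of each chromosome. In sgNeg, H3K27Ac peaks covered 16.95% of chromosome 8, which holds MYBL1, and 5.45% of chromosome 6, which holds MYB.

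Apart from the upstream end of the MYB promoter peak, H3K27Ac peaks of the interval between HBS1L and MYB were at most 969 bp wide and 3.30-fold with either guide. On GRCh37 the HBS1L record includes a transcript that starts far upstream, which leaves an interval of 78251 bp, and on GRCh38 it is 126485 bp. H3K27Ac peaks covered 5.45% of chromosome 6 in sgNeg and 3.94% in sgNpm1A. H3K27Ac coverage of the interval was 10.6% in sgNeg, 2.45% in sgNpm1A and their ratio 0.231. Part of the sgNeg value was the upstream end of the MYB promoter peak, and without it, an alternative added after seeing the data, coverage in sgNeg was 6.48% and the ratio 0.377. The upstream end of the 21514-bp MYB peak was the only one of the 11 sgNeg peaks with a q-value under 0.01. The other 10 were 146 to 894 bp wide, with folds of 2.58 to 2.91 and a best rank of 108486 of 327715. The 4 sgNpm1A peaks were 188 to 969 bp wide, with folds of 2.83 to 3.30 and a best rank of 52588. From the start that most HBS1L transcripts share (position 135376022), an interval chosen after seeing the data, coverage was 9.36% and 1.74%.

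By 10-kb bins from the MYB start, H3K27Ac in sgNeg was highest over the upstream part of the gene. The bin of −10 to 0 kb was covered at 40.7%, that of 0 to 10 kb at 100% and that of 10 to 20 kb at 87.3%, against 1.88%, 0% and 0% in sgNpm1A. Farther upstream, the bin of −40 to −30 kb stood out with 24.95% in sgNeg and 5.45% in sgNpm1A. The bin of −30 to −20 kb was the reverse, with 0% in sgNeg and 9.69% in sgNpm1A, from 1 peak of 969 bp at 2.87-fold. No H3K27Ac peak of either guide lay between −90 and −60 kb.

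Only 1 interval position had overlapping H3K27Ac peaks with both guides. It was a sgNeg peak of 894 bp (chr6:135467237-135468130) with 2.91-fold at rank 108486, and a sgNpm1A peak of 545 bp (chr6:135467369-135467913) with 2.85-fold at rank 201528, from −35209 to −34316 bp and from −35077 to −34533 bp. The 300 bases at the centre of the shared stretch (chr6:135467491-135467790, GRCh37, plus strand) are shown for that reason, and none of the same 3 motifs was found in them.
HBS1L-MYB interval: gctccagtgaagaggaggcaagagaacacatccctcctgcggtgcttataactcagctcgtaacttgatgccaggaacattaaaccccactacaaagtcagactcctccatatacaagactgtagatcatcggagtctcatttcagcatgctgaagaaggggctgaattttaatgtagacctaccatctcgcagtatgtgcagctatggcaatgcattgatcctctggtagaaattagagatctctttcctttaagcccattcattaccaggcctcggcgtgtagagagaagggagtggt

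About 7 kb upstream of MYB, all 4 lists held a small peak. For H3K27Ac it lay from −7395 to −6920 bp in sgNeg with 2.73-fold and from −7639 to −7452 bp in sgNpm1A with 3.30-fold, and these did not overlap. For H3K4me3 it lay from −7395 to −7209 bp in sgNeg with 4.16-fold and from −7653 to −7342 bp in sgNpm1A with 3.05-fold, and these did. Of the 9 sgNeg H3K4me3 peaks of the interval, the 549-bp peak beside the MYB start was the highest, and the other 8 were at most 203 bp wide. The peak near 7 kb was the only H3K4me3 peak of the interval in sgNpm1A. H3K4me3 coverage of the interval was 1.43% in sgNeg and 0.247% in sgNpm1A, giving a ratio of 0.173. Chromosome 6 as a whole went from 1.53% to 0.704% for this mark.

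MYBL1 had promoter peaks of both marks in sgNeg alone, while H3K27Ac coverage of its region was near level between the guides. The sgNeg H3K27Ac promoter peak (chr8:67524787-67526909) was 2123 bp wide, from −427 to 1695 bp, with 4.98-fold at rank 5815, and none was listed in sgNpm1A. Coverage of the region was 11.5% in sgNeg and 11.9% in sgNpm1A, giving a ratio of 1.03, and was below 1 with other flanks and with stricter peak limits. The peaks numbered 20 and 19. Chromosome 8 as a whole was covered at 16.95% and 18.96%, more than MYBL1 itself. In sgNpm1A, the 3 highest peaks lay outside the gene. A peak of 286 bp from −4979 to −4694 bp had 3.60-fold at rank 20477, a peak of 547 bp from −2717 to −2171 bp had 3.54-fold at rank 24749, and a peak of 171 bp in VCPIP1, a deubiquitinase gene upstream, had 3.50-fold at rank 27874. The last 2 overlapped sgNeg peaks of 3.16-fold and 3.25-fold, so that these flank positions were listed with both guides. The other leading sgNeg peak, of 169 bp at an internal start, had 3.25-fold and no sgNpm1A peak over it.

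H3K4me3 at the MYBL1 start lay on both sides of it in sgNeg. A peak of 1140 bp (chr8:66612154-66613293) from −75 to 1064 bp had 8.94-fold at rank 2871, with 42 fragments at the summit (30.3 to 56.8). A peak of 919 bp from −1323 to −405 bp had 7.70-fold at rank 4879. Neither had a sgNpm1A peak over it. Beyond the 3′ end, however, H3K4me3 was listed with both guides, with a sgNeg peak of 722 bp (chr8:66559296-66560017) at 4.78-fold and rank 21814 and a sgNpm1A peak of 913 bp (chr8:66559307-66560219) at 5.34-fold and rank 2681. That sgNpm1A peak stood at percentile 96.9 of its list and was the highest of all 18 sgNpm1A H3K4me3 peaks described here. The other leading sgNeg flank peak, of 487 bp from 68593 to 69079 bp, had 5.20-fold at rank 15492. After the 3′ peak, the highest sgNpm1A peaks were one of 313 bp upstream of the start with 4.07-fold and 3 tied at 3.56-fold. Coverage of the region was 7.37% and 3.60%, a ratio of 0.489, and of the chromosome 10.2% and 7.30%.

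MYBL2 was the only one of the 4 genes with any promoter peak in sgNpm1A, and that peak was narrow. With 2500 bp on either side of the start, 2 of the 4 genes had one. In sgNeg the H3K27Ac promoter peak (chr20:42295440-42296603) was 1164 bp wide, from −219 to 944 bp, with 4.70-fold at rank 7144. In sgNpm1A a peak of 158 bp from 779 to 936 bp was listed, with 2.95-fold at rank 151403, percentile 52.1 of its list. It lay within the downstream end of the sgNeg peak, and with a window of 500 bp on either side of the start it no longer counted. Coverage of the region was 22.6% in sgNeg and 13.7% in sgNpm1A, giving a ratio of 0.608, and of chromosome 20 10.3% and 6.94%. Within the gene record alone it was 16.4% and 16.8%, so that the difference lay in the flanks. Exonic peaks were listed with both guides. They summed to 5743 bp in 3 sgNeg peaks, 1 of them from 15018 to 16090 bp and the other two beyond 43973 bp, toward the 3′ end. In sgNpm1A they summed to 7590 bp in 5 peaks, all beyond 32511 bp, the highest of which, 1426 bp up to 33936 bp, had 3.27-fold at rank 58485. The highest sgNpm1A peak of the region lay downstream, with 183 bp and 3.37-fold at rank 41835, and another exonic peak, of 2257 bp, had 3.16-fold.

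Beside MYBL2, the highest H3K27Ac peak of sgNeg after the promoter lay at GTSF1L, a small gene downstream. A sgNeg peak of 4147 bp (chr20:42352371-42356517) had 4.40-fold at rank 8936 and took in its promoter, and no sgNpm1A peak overlapped it. A sgNeg peak of 1007 bp from −9877 to −8871 bp, with 3.49-fold at rank 23270, had no sgNpm1A peak over it either. IFT52, an intraflagellar transport gene upstream, had a H3K27Ac promoter peak with both guides, at percentile 97.0 in sgNeg and 98.8 in sgNpm1A. Its H3K4me3 promoter peak, at percentile 97.9 in sgNeg, was not listed in sgNpm1A.

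The MYBL2 H3K4me3 promoter peak of sgNeg (chr20:43667123-43668125) was 1003 bp wide, from 9 to 1011 bp, with 10.4-fold at rank 1469 and 49 fragments at the summit (36.3 to 64.8). None was listed in sgNpm1A. In the gene body, narrow peaks were listed with both guides, 14 in sgNeg with folds of 2.70 to 4.37 and 5 in sgNpm1A with folds of 3.05 to 4.58. The highest sgNpm1A peaks were 430 bp wide inside the gene (chr20:43700187-43700616), with 4.58-fold at rank 9547, 1518 bp wide beyond its 3′ end, with 4.32-fold at rank 14778, and 293 bp wide, with 3.56-fold at rank 50046, and each overlapped a sgNeg peak. After the promoter, the sgNeg peaks with the highest folds were at 4.78 upstream, 491 bp wide, and at 4.37 inside the gene, 195 bp wide. Coverage of the region was 7.92% and 4.28%, a ratio of 0.540.

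**Figure D2:**
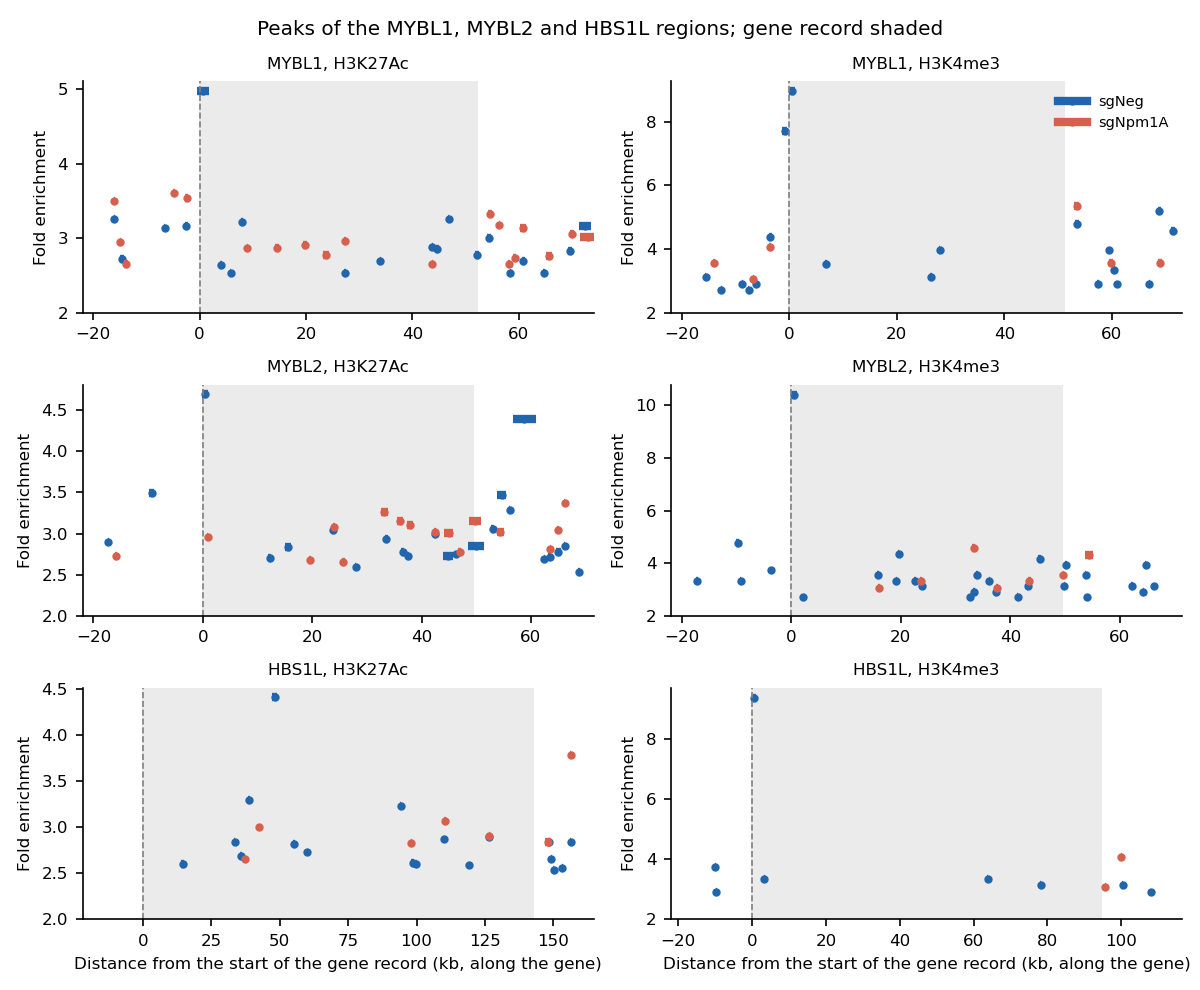
Peaks of the MYBL1, MYBL2 and HBS1L regions by distance from the start of the gene record in kb (x, along the gene) and fold enrichment (y), with H3K27Ac on the left and H3K4me3 on the right. Each bar with a point is 1 peak, in blue for sgNeg and red for sgNpm1A, and gray marks the gene record. In each panel the highest point is a sgNeg promoter peak, for HBS1L H3K27Ac inside the record at the start most of its transcripts share.

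HBS1L had a promoter peak of each mark in sgNeg and none in sgNpm1A. The H3K27Ac peak (chr6:135375166-135376901) was 1736 bp wide and lay across the shared start, from −879 to 856 bp, with 4.42-fold at rank 8773. At the far upstream start of the record no H3K27Ac peak was listed with either guide. The other leading sgNeg peaks were intronic, 955 bp at 3.29-fold and rank 35548 and 165 bp at 3.23-fold and rank 41803, and neither had a sgNpm1A peak over it. In sgNpm1A the highest peak lay in ALDH8A1, an aldehyde dehydrogenase gene beyond the 3′ end, with 292 bp and 3.79-fold at rank 11861, followed by intronic peaks of 795 bp at 3.07-fold and 145 bp at 3.00-fold. H3K27Ac coverage was 4.83% and 2.11%, a ratio of 0.438.

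The HBS1L H3K4me3 promoter peak of sgNeg (chr6:135053762-135054687) was 926 bp wide, from 135 to 1060 bp, with 9.36-fold at rank 2373 and 44 fragments at the summit (32.0 to 59.1). No other H3K4me3 peak of sgNeg in the region passed 3.74-fold. The 2 sgNpm1A peaks lay beyond the 3′ end, with folds of 4.07 and 3.05 and widths of 335 and 247 bp, and neither overlapped a sgNeg peak. Coverage was 1.79% and 0.433%, a ratio of 0.241. All 4 H3K4me3 summits lay downstream of the start, by 351 to 537 bp, and over all 12716 promoters with a sgNeg peak 78.2% did, with a median of 353 bp.

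Across the 4 genes, 3 had a H3K27Ac promoter peak in sgNeg alone, MYB, MYBL1 and HBS1L, where 26.9% of all genes did. For H3K4me3 it was all 4, where 58.7% of all genes did. Of the 15950 genes with a H3K27Ac promoter peak in sgNeg, 5430 had it in sgNeg alone, and for H3K4me3 11542 of 12716 did. H3K27Ac folds in sgNeg ran in the order MYB (7.20), MYBL1 (4.98), MYBL2 (4.70) and HBS1L (4.42), with no replicate to give their spread. H3K4me3 folds ran in the order MYB (12.1), MYBL2 (10.4), HBS1L (9.36) and MYBL1 (8.94), and the Poisson intervals of their summits overlapped for every pair, so that the order was not resolved at this depth. H3K27Ac coverage was lower in sgNpm1A in 4 of the 5 regions, all but MYBL1, and lower in 63.5% of all genes with the same flanks. H3K4me3 coverage was lower in all 5, and in 87.7% of all genes. The H3K4me3 counts thus lay near what most genes showed.

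**Figure D3:**
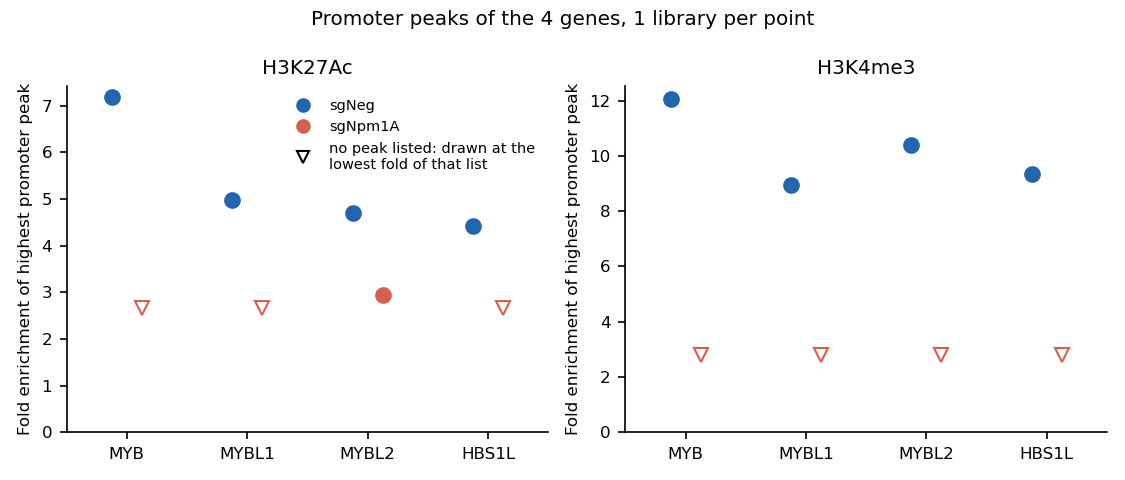
Fold enrichment of the highest promoter peak (y) of MYB, MYBL1, MYBL2 and HBS1L (x) for H3K27Ac (left) and H3K4me3 (right), 1 library per point, in blue for sgNeg and red for sgNpm1A. An open triangle marks a gene with no peak listed and is drawn at the lowest fold of that list, 2.66 for H3K27Ac and 2.80 for H3K4me3. The MYBL2 H3K27Ac peak at 2.95 is the only filled sgNpm1A point.

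**Figure D4:**
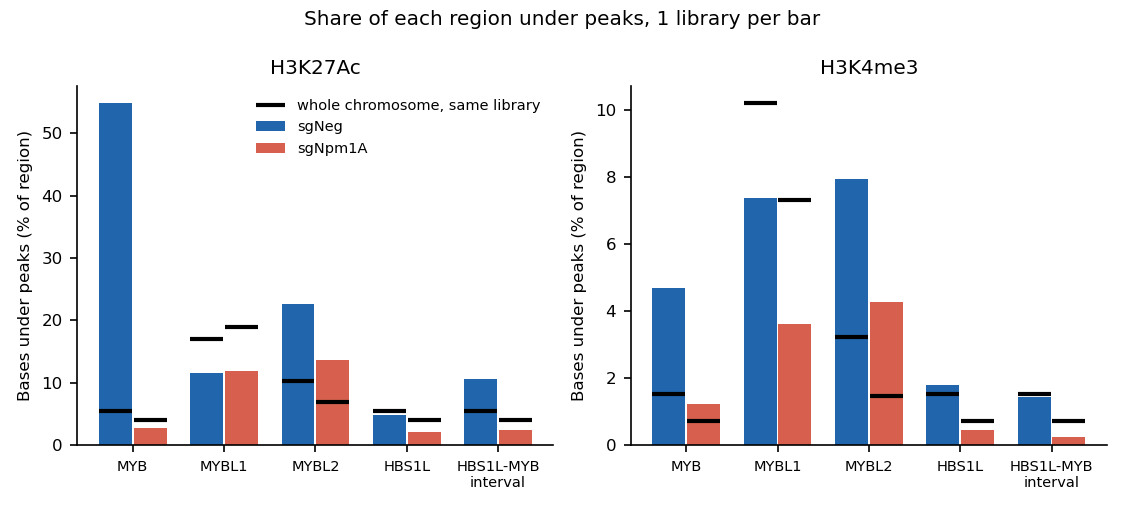
Share of bases under peaks in percent (y) in the 4 gene regions and the interval (x), for H3K27Ac (left) and H3K4me3 (right), 1 library per bar, blue for sgNeg and red for sgNpm1A. Black lines give the coverage of the whole chromosome in the same library. H3K27Ac at MYB goes from 54.9% to 2.67%, and MYBL1 stays below its chromosome in both libraries.

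The genes most like MYB in coverage across the 4 lists were found by the mean absolute difference of the percentile, over 19076 genes. They were RNASE1 (4.75 points), H2BC11 (5.60), PCBP1 (6.05), H2AC11 (6.07) and LMO2 (6.44). LMO2, a bridging factor of blood progenitors, had H3K27Ac coverage of 57.3% in sgNeg and 6.37% in sgNpm1A. RNASE1 had 55.4% and 1.499%. The genes were picked by coverage in these same lists, so that values like those of MYB followed from the choice. For MYBL1 the closest were AGBL3 (1.04), MAP3K10 (1.30) and STK36 (1.59), for MYBL2 SLX4 (0.765), DDB1 (0.976) and CD1E (1.40), and for HBS1L CUTC (1.43), C16orf46 (1.496) and BMAL2 (1.83). The likeness rests on 4 libraries and on percentiles that many genes share.

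The genes that act with the family were taken as 6 lists of 85 genes in all. Of these, 27 (31.8%) had a H3K27Ac promoter peak in sgNeg alone, beside 26.9% of all genes, and 72 (84.7%) a H3K4me3 one, beside 58.7% of all genes. These shares also depend on how many genes had a sgNeg peak at all. For H3K27Ac these were 83 of 85, and 15950 of 20163 over all genes. For H3K4me3 they were 74 of 85, and 12716 of 19666 over all genes, 11542 of them in sgNeg alone. The shares of the single lists below have the same limit. The 27 became 17 to 72 under other peak limits and windows, for which the share over all genes was not computed. With a fold of at least 4, 66 of the 85 had a H3K27Ac promoter peak in sgNeg and 0 in sgNpm1A. The whole lists held 12318 and 6888 peaks of that fold, and how many of all genes had one at the promoter was not counted. By percentile of the highest promoter peak within its list, 81 of 85 stood lower in sgNpm1A for H3K27Ac, against 13224 of 20163 genes. The median went from 98.9 to 34.1, and over all genes from 92.38 to 23.03.

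The G2/M genes that MYBL2 and MuvB switch on had the largest H3K27Ac share of the 6 lists. Of 18, 11 (61.1%) had a H3K27Ac promoter peak in sgNeg alone, beside 26.9% of all genes, and all 18 a H3K4me3 one, beside 58.7%. BIRC5, the mitotic and antiapoptotic protein survivin, had a H3K27Ac promoter peak of 8.41-fold and a H3K4me3 peak of 12.3-fold in sgNeg and none in sgNpm1A. BUB1, a spindle checkpoint kinase, had a H3K27Ac peak with both guides, at percentile 99.7 in sgNeg and 73.7 in sgNpm1A, and UBE2C, the E2 enzyme of the anaphase-promoting complex, at 98.8 and 79.1. NEK2, a centrosomal kinase, had a H3K4me3 peak of 9.15-fold in sgNeg alone.

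The list of 15 MuvB and DREAM genes held subunits of these complexes and, beside them, FOXM1, CCNF, CDK2 and CCNA2. Of the 15, 5 (33.3%, beside 26.9% of all genes) had a H3K27Ac promoter peak in sgNeg alone and 14 (93.3%, beside 58.7%) a H3K4me3 one. LIN9, a MuvB subunit, stood at H3K27Ac percentile 99.9 in sgNeg and 54.3 in sgNpm1A, and CCNA2, cyclin A2, had a 7.80-fold peak in sgNeg alone. LIN37, another MuvB subunit, stood at 94.8 and 94.5, and TFDP2, a partner of E2F factors, stood at 90.1 and 88.9. E2F4, the main repressive E2F of the complex, had a H3K4me3 promoter peak with both guides, at percentile 99.9 in sgNeg and 25.6 in sgNpm1A, and E2F5 had one of 11.9-fold in sgNeg alone.

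Of the 18 target genes of MYB in blood cells, 5 (27.8%) had a H3K27Ac promoter peak in sgNeg alone, near the 26.9% of all genes, and 13 (72.2%, beside 58.7%) a H3K4me3 one. AZU1, a granule protein gene, stood at H3K27Ac percentile 99.98 in sgNeg and 3.21 in sgNpm1A, and GFI1, a transcriptional repressor, at 99.9 and 38.7. The order was the reverse for some of the list, as GATA2, a factor of early progenitors, stood at 10.3 in sgNeg and 96.2 in sgNpm1A and RUNX1T1, a corepressor, at 87.5 and 96.9. KIT, the stem cell factor receptor, named after its values were seen, had a H3K27Ac promoter peak in sgNpm1A alone, at percentile 13.2. MYC had a H3K4me3 promoter peak of 17.1-fold and GFI1 and ELANE one of 11.0-fold each in sgNeg alone. CEBPE, a factor of late granulocyte development, was the only one of the 18 with a H3K4me3 promoter peak in sgNpm1A, at percentile 25.6.

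Of the 12 protein partners of MYB, 2 (16.7%, beside 26.9% of all genes) had a H3K27Ac promoter peak in sgNeg alone and 11 (91.7%, beside 58.7%) a H3K4me3 one. EP300, the acetyltransferase that binds MYB, stood at H3K27Ac percentile 99.985 in sgNeg and 74.2 in sgNpm1A, its relative CREBBP at 99.8 and 87.6, and HIPK2, a nuclear kinase, at 99.4 and 92.1. CEBPA, a myeloid transcription factor, had a H3K27Ac promoter peak of 7.86-fold and a H3K4me3 one of 16.4-fold in sgNeg alone, and TRIM28, a corepressor, a H3K4me3 one of 15.6-fold.

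Of 14 regulators described at the MYB locus, 2 (14.3%, beside 26.9% of all genes) had a H3K27Ac promoter peak in sgNeg alone and 10 (71.4%, beside 58.7%) a H3K4me3 one. HOXA9, a homeobox factor that is high in mtNPM1 leukemia, stood at H3K27Ac percentile 99.988 in sgNeg and 66.6 in sgNpm1A, and SPI1, the myeloid factor PU.1, at 99.97 and 34.1. ERG, an ETS factor, stood at 97.7 and 95.4. SPI1 had a H3K4me3 promoter peak of 10.6-fold, and HOXA9 and CBFB, the partner of RUNX1, one of 9.57-fold each in sgNeg alone. GATA1, named after its values were seen, was the only one of the 14 without a promoter peak in any list. Of 12 ribosome rescue genes, with which HBS1L acts, 3 (25%) had a H3K27Ac promoter peak in sgNeg alone and 10 (83.3%) a H3K4me3 one, beside the same shares of all genes. GTPBP2 stood at H3K27Ac percentile 99.8 and 87.4, GTPBP1 at 99.6 and 85.2 and NEMF, which marks stalled chains for degradation, at 99.5 and 94.3. ZNF598, which senses collided ribosomes, and GTPBP1 had H3K4me3 promoter peaks of 12.9-fold and 11.9-fold in sgNeg alone.

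**Figure D5:**
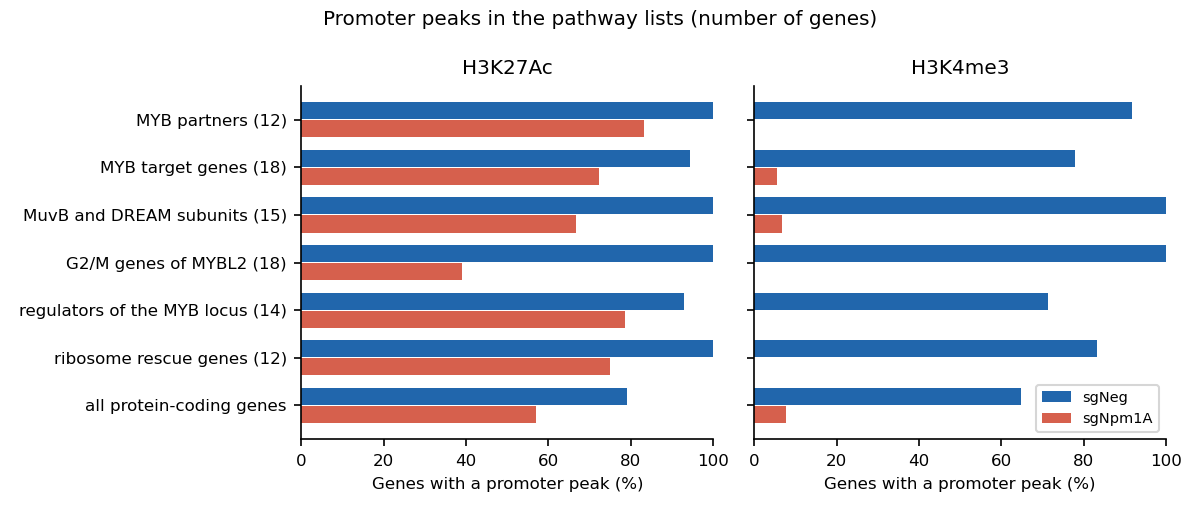
Share of genes with a promoter peak in percent (x) in the 6 pathway lists and over all protein-coding genes (y, number of genes in brackets), for H3K27Ac (left) and H3K4me3 (right), blue for sgNeg and red for sgNpm1A, 1 library each. The G2/M genes go from 18 of 18 to 7 of 18 for H3K27Ac and from 18 of 18 to 0 of 18 for H3K4me3.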

How the data were processed

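ChIPmentation libraries of H3K27Ac and H3K4me3 were available as 4 peak lists, 1 library per group, grouped by sample titles. The submitters' processing notes name bcl2fastq 2.17, Trimmomatic 0.33, Bowtie 1.1.2, MACS2 2.1.0, deepTools and hg38. The calling threshold and the use of inputs are not given in the sources used here. The fold enrichment deposited by the authors is a ratio of pileup to background, taken at the summit for H3K4me3, with 1 added to both, and over the peak for H3K27Ac. Each peak also has −log10 values of p and q deposited by the authors (a p-value and q-value per peak), and a score deposited with them was not used. Last peak ends on chromosome 1 (249218478) and chromosome 17 (83201881) place H3K27Ac on GRCh37 and H3K4me3 on GRCh38, and nothing was converted. Genes came from GENCODE 44 mapped to GRCh37 (any transcript start, with exons) and from a RefSeq table of GRCh38.p14 (gene record only). For 19666 of 20037 genes of that table a strand was found.

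Coverage is the share of bases under merged peaks. An overlap was at least 1 bp. Ranks and percentiles are by fold within a list, with 0 for no peak. The fold of H3K4me3 gave whole pileups, within 0.02 fragments, for 100% of peaks. With the added 1, the Poisson tail beyond the pileup matched the deposited −log10 p within 0.05 for at least 99.996% of peaks, and without it for 0%. Named are the 4 genes, their neighbours, the 3 highest peaks per region and list, at most 4 genes per pathway list and mark (the 2 highest percentiles with each guide), and the genes most like each member. Members, lists and motifs were chosen with earlier results of these data known. Python 3.11.15, pandas 2.3.3, numpy 2.4.6, scipy 1.17.1 and matplotlib 3.10.9 were used, and the interval functions were tested on simulated data. Alternatives changed the peak limit, flank and promoter window. Depth was not in the lists, and a missing peak means only that none passed the caller's limit.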

Additional observations from a re-analysis of the deposited data

How the results depend on the processing

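No paired analysis was possible because each group was 1 library, and no replicate could be left out. The direction of the MYB and interval ratios was the same under all alternatives run. The cause of the changes below was not tested beyond their construction, which leaves fewer peaks or other bases. For H3K27Ac, the MYB ratio of sgNpm1A to sgNeg coverage was 0 with a q-value under 1e-05, a fold of at least 4, the 20000 peaks of lowest p-value or the gene record alone, 0.0142 with 5 kb and 0.123 with 50 kb on either side. The interval ratio was 0.0586 with a q-value under 0.01 or the 100000 peaks of lowest p-value, and 0 with a q-value under 1e-05, a fold of at least 4 or 20000 peaks. In these settings the sgNeg bases left were the upstream end of the MYB promoter peak alone, so that they restate that peak and not the rest of the interval. Without that peak the ratio was 0.377. The MYBL1 ratio reversed to 0.674 (q-value under 0.01), 0.57 (100000 peaks), 0.791 (gene record), 0.777 (5 kb) and 0.799 (50 kb), and to 0 with a q-value under 1e-05, a fold of at least 4 or 20000 peaks. The MYBL2 ratio reversed to 1.03 for the gene record. The pathway genes with a H3K27Ac promoter peak in sgNeg alone, 27 of 85, numbered 55 (q-value under 0.01), 64 (1e-05), 66 (fold of at least 4), 72 (20000 peaks), 57 (100000 peaks), 17 (window of 2500 bp) and 55 (start of the gene record only). The share over all genes was not computed with these other settings. For H3K4me3, the MYB ratio was 0 with a q-value under 1e-05, a fold of at least 4, 20000 peaks, the gene record or 5 kb. The interval ratio was 0 with a q-value under 1e-05 or a fold of at least 4 and 0.424 with 100000 peaks, and had no value with 20000 peaks, where sgNeg had none. Coverage was lower in 3 of 5 regions with 20000 peaks, where the MYBL2 ratio reversed to 1.94, and it was 1.32 with 100000 peaks. Promoter peaks in sgNeg alone ranged from 2 to 4 of the 4 genes for H3K27Ac and were 4 in every H3K4me3 alternative. The sgNpm1A H3K4me3 list has a lowest pileup of 10 fragments, which limits what it can show.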
